A study of Homo sapiens with 118 samples.

Results

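The bromodomain and extra-terminal (BET) proteins are readers of acetylated lysine, and inhibitors of histone deacetylases raise the acetylation that they read. The 6 genes described here encode the BET proteins BRD2 and BRD3, the elongation factor P-TEFb (its kinase CDK9 and its cyclin CCNT1), the P-TEFb inhibitor HEXIM1, and the transcription factor MYC. They were taken as the rows of the count table whose name, without the trailing probe number, was one of these symbols. Each gene had 1 detector probe, so 6 of the 22068 features with a value in all libraries, and 6 of 19470 gene symbols, are described. All 6 passed the filter on low counts in each of the 8 chemicals.

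BET proteins bind acetylated histone tails through paired bromodomains and help to bring P-TEFb to promoters. P-TEFb phosphorylates RNA polymerase II and its pausing factors, which releases the polymerase into elongation. A large share of P-TEFb is held inactive in a particle built on the 7SK RNA, in which HEXIM1 blocks the kinase, LARP7 protects the end of the RNA and MEPCE caps it. Release of P-TEFb from this particle is a known cellular reaction to deacetylase and BET inhibitors. MYC, a short-lived factor whose transcription depends on BET proteins in many cells, drives genes of growth and ribosome production in a dimer with MAX. In liver, MYC is low in resting hepatocytes and rises in regeneration.

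Expression was measured with TempO-Seq, in which pairs of probes are ligated on their target RNA and sequenced, in differentiated HepaRG cells, an established human hepatic line. Cells received 1 of 8 deacetylase inhibitors for 72 h with daily renewal. These were the benzamides mocetinostat and tacedinaline, the hydroxamates panobinostat, scriptaid, trichostatin A and vorinostat, the cyclic peptide apicidin and the fatty acid valproic acid. Exposure was to 5 concentrations of each chemical, numbered upwards from C1 to C5, in 3 libraries that came from HepaRG batches 1, 2 and 3. C3 of panobinostat and C4 of trichostatin A had 2 libraries, which gives 118 libraries in 40 groups. All groups were exposed, and C1 of the same chemical was the reference, so a response that was complete at C1 would not be seen. C1 and C5 were 0.041722 and 0.86 µM for apicidin, 0.177222 and 3.9 µM for mocetinostat, 0.001468 and 0.084 µM for panobinostat, and 4.94 and 94.5 µM for scriptaid. They were 1.143333 and 44 µM for tacedinaline, 0.018811 and 1.5237 µM for trichostatin A, and 0.404778 and 23.5 µM for vorinostat. C2, C3 and C4 were 0.125167, 0.3755 and 0.5 µM for apicidin and 0.531667, 1.595 and 2.5 µM for mocetinostat. They were 0.004403, 0.01321 and 0.03963 µM for panobinostat and 14.82, 44.46 and 60 µM for scriptaid. Tacedinaline had 3.43, 10.29 and 30.87 µM, trichostatin A 0.056433, 0.1693 and 0.5079 µM, and vorinostat 1.214333, 3.643 and 10.929 µM. Steps between neighbouring concentrations were uneven. For valproic acid the labels give 100.478 and 3038, and the treatment protocol gives much smaller numbers in the same unit, so its unit is uncertain. The concentrations differ between the chemicals, so the change was not tested between any pair of chemicals, and levels in different chemicals are only set side by side.

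Total counts lay between 1061359 and 5250260 per library, and fell with concentration in some chemicals (for vorinostat from a mean of 3038905 at C1 to 1485592 at C5). The labels call the cells liver progenitor cells. The 16 features of the hepatocyte markers summed to between 16900 and 98100 CPM (counts scaled to a common library total) in the C1 libraries, and the 9 features of biliary and progenitor markers to between 65.4 and 167 CPM. In 8 libraries below C5 the profile stood apart from those of all other groups. The 8 were mocetinostat C2 of batches 1 and 2, mocetinostat C3, apicidin C4 and tacedinaline C4 of batch 1, and scriptaid C4, trichostatin A C1 and valproic acid C4 of batch 3. Where leaving them out changed a call of the 6 genes or moved a called value by over 1.5 times, the value without them is given as well. In these bulk lysates, fewer cells of a type and less RNA per cell cannot be told apart.

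Of the 6 genes, MYC was the one that changed most often. A change was called where edgeR's quasi-likelihood test gave a Benjamini-Hochberg adjusted p under 0.05 over all features of the chemical and the fold change was at least 1.5. Between C1 and C5, the 48 tests (6 genes in 8 chemicals) gave 3 rises and 2 falls. Over all features and chemicals, 11.6% of tests gave a rise and 13.4% a fall, so the 6 genes as a group were called no more often than the background. MYC accounted for all 3 rises and for 1 of the falls, and CCNT1 for the other. BRD2, BRD3, HEXIM1 and CDK9 were called in 0 of 8 chemicals, as were 32.4% of the 11288 features tested in all 8. At an unadjusted p under 0.05, BRD2 and HEXIM1 each had 1 chemical, BRD3 had 2 and CDK9 had 0. With DESeq2 in place of edgeR the 4 genes were also called in 0 chemicals at C5.

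**Figure D1:**
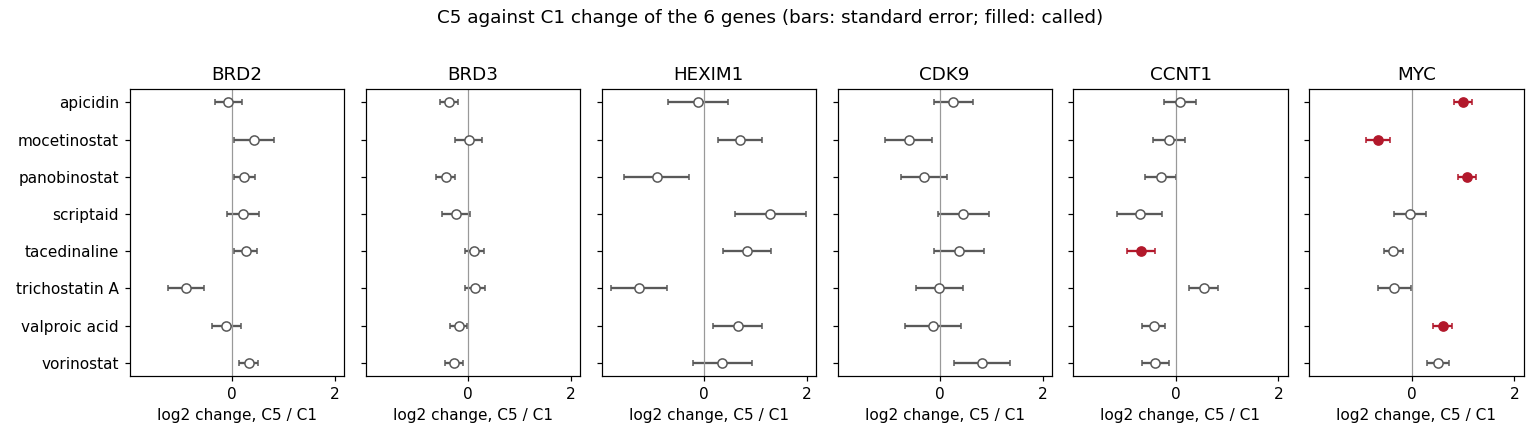
Log2 change from C1 to C5 for each of the 6 genes (panels) in each of the 8 chemicals (vertical axis), as estimated by edgeR; bars are the standard error and filled red points are changes that were called. MYC has filled points on both sides of 0, CCNT1 has 1 on the left, and the panels of BRD2, BRD3, HEXIM1 and CDK9 have none.

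MYC rose at C5 of apicidin, panobinostat and valproic acid and fell at C5 of mocetinostat. In apicidin its level was 119, 124 and 121 CPM at C1 and 224, 265 and 232 CPM at C5 (batches 1, 2 and 3 in turn, here and below). The C5 libraries all lay above the C1 libraries, and the log2 change was 1.00 ± 0.17 (SE, n = 3 libraries per group; edgeR adjusted p = 0.000107), where 13.8% of features rose. In panobinostat the level was 101, 94.9 and 105 CPM at C1 and 188, 225 and 229 CPM at C5. These groups did not overlap either, and MYC rose by 1.08 ± 0.18 on the log2 scale (edgeR adjusted p = 0.000233), where 6.77% of features rose. Both of these rises kept their call under each of the 11 alternatives run, with log2 changes between 0.90 and 1.04 in apicidin and between 1.02 and 1.16 in panobinostat. Not all of the 11 could lose a call. Dropping the minimum fold change only relaxes the rule, and no panobinostat library stood apart, so leaving such libraries out repeats its main fit.

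The rise in valproic acid was smaller. MYC stood at 109, 121 and 76.8 CPM at C1 and at 159, 158 and 146 CPM at C5. All C5 libraries were again above all C1 libraries, with a log2 change of 0.60 ± 0.19 (edgeR adjusted p = 0.0363), where 4.84% of features rose. This call was lost without any 1 of the 3 batches, with values between 0.47 and 0.73 and edgeR adjusted p up to 0.268.

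Mocetinostat went the other way. MYC was at 104, 109 and 94.8 CPM at C1 and at 58.5, 77.8 and 48.8 CPM at C5. The groups did not overlap, the log2 change was -0.65 ± 0.24 (edgeR adjusted p = 0.0479), and 15.7% of features fell in this chemical. Without batch 1, 2 or 3 the log2 change was -0.66, -0.81 and -0.57 and the call was lost in each case, with edgeR adjusted p between 0.125 and 0.178. Without the libraries that stood apart it was -0.72 (edgeR adjusted p = 0.00231).

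In the other 4 chemicals MYC was not called at C5. In vorinostat it stood at 83.8, 90.7 and 86.1 CPM at C1 and at 140, 120 and 86.7 CPM at C5, a log2 change of 0.51 ± 0.21 that passed the adjusted p (edgeR, 0.0384) but not the minimum fold change. In tacedinaline the levels were 111, 93.9 and 111 CPM at C1 and 81.7, 90.1 and 61.1 CPM at C5, with a log2 change of -0.36 ± 0.18 (edgeR adjusted p = 0.11). In scriptaid they were 73.1, 104 and 69.2 CPM at C1 and 84.9, 106 and 38.2 CPM at C5, so that the C5 group covered the whole of the C1 group. In trichostatin A the C1 libraries gave 105, 113 and 310 CPM and the C5 libraries 135, 164 and 115 CPM. The high C1 library of batch 3 is one of the 8 that stood apart, and the log2 change was -0.34 ± 0.32 with it and 0.35 without it, neither of which was called.

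**Figure D2:**
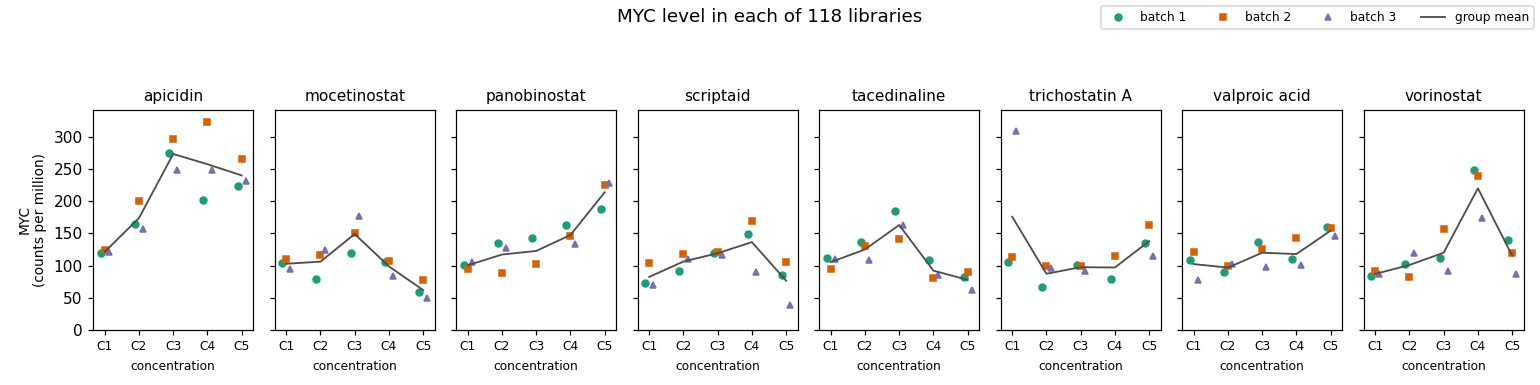
MYC level (vertical axis, CPM) at C1 to C5 (horizontal axis) in the 8 chemicals; each point is a library, colour and shape give the HepaRG batch and the line joins group means. The means climb to C5 in panobinostat, reach their highest value at C3 in apicidin, mocetinostat and tacedinaline and at C4 in vorinostat, and the single high point in trichostatin A is the C1 library of batch 3 at 310 CPM.

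The C5 change of MYC differed among the chemicals. A test that the C5 minus C1 change was equal in all 8, in a fit of all 118 libraries, gave F = 7.79 with 7 degrees of freedom (edgeR adjusted p = 2.59e-06), and 30.3% of 15632 features passed this test. Leaving out trichostatin A gave an edgeR adjusted p of 1.16e-06, and leaving out each batch in turn gave between 0.000263 and 0.00235. None of the other 5 genes passed this test, with edgeR adjusted p of 0.076 for HEXIM1, 0.167 for CCNT1, 0.27 for BRD2, 0.527 for BRD3 and 0.7 for CDK9. MYC was 1 of 176 features (1.56% of 11288) that rose in some chemicals and fell in others. A class cut at the counts of MYC itself, at least 3 rises and at least 1 fall, held 16 (0.142%). As the cut follows MYC, this share is only a description. Its fall in mocetinostat and its rise in valproic acid each lost their call in 5 of 11 alternatives. The 11 include the one with no minimum fold change, which cannot lose a call.

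The concentrations between C1 and C5 showed where MYC was first called and where its level turned. At C2 it was called in 0 of 8 chemicals (edgeR, 2 at an unadjusted p under 0.05), where 0.0865% of all tests were called. Levels could part from C1 without a call. In apicidin C2 held 157 to 201 CPM against 119 to 124 CPM at C1. In panobinostat C4 held 133 to 163 CPM against 94.9 to 105 CPM at C1. The first call is therefore not the first shift in level. At C3 it rose in apicidin, to 275, 297 and 249 CPM, a log2 change of 1.18 ± 0.17 (edgeR adjusted p = 4.83e-05), where 6.94% of features rose. At C4 it was at 202, 323 and 248 CPM in apicidin and called again (1.10 ± 0.17, edgeR adjusted p = 6.5e-05), where 11.1% of features rose. The C4 library of batch 1 stood apart, and without it the change was 1.24. Apicidin was the chemical in which the rise of MYC was called at C3, C4 and C5. In tacedinaline C3 gave 185, 141 and 163 CPM, above all C1 libraries, and a rise of 0.66 ± 0.18 on the log2 scale (edgeR adjusted p = 0.00841), where 5.44% of features rose. That call was lost without batch 1 and without batch 2, at 0.59 and 0.67. In vorinostat C4 gave 249, 239 and 173 CPM, the highest MYC levels of this chemical, and MYC rose by 1.38 ± 0.20 (edgeR adjusted p = 1.57e-06), where 15.6% of features rose.

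After these maxima MYC declined in 3 chemicals. Tests of C5 against C3 and C4 were chosen after the levels had been seen. From C3 to C5 of tacedinaline, the log2 change of MYC was -1.02 ± 0.18 (edgeR adjusted p = 2.98e-05), where 13.2% of features fell. In mocetinostat, C3 libraries held 120, 150 and 177 CPM of MYC, and the fall from C3 to C5 was -1.21 ± 0.24 (edgeR adjusted p = 0.00514), where 5.53% of features fell. This call was lost without batch 2 and without batch 3, at -1.41 and -0.94, and the value was -1.37 without the libraries that stood apart. In vorinostat MYC fell from C4 to C5 by 0.87 (SE 0.20, edgeR adjusted p = 0.00219), where 10.8% of features fell. In panobinostat the 2 libraries of C3 had 143 and 103 CPM, and MYC rose from C3 to C5 by 0.81 ± 0.21 (edgeR adjusted p = 0.016), where 2.49% of features rose; this call was lost without any 1 of the batches, at values between 0.57 and 1.14.

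Scriptaid also held its highest MYC levels at C4, with 150, 169 and 90.5 CPM. The low library, of batch 3, is one that stood apart. Without it MYC rose from C1 to C4 by 0.94 on the log2 scale (edgeR adjusted p = 0.0225), where 2.2% of features rose with it in, and fell from C4 to C5 by 0.99 (edgeR adjusted p = 0.00601), and with it neither change was called. With the HepaRG batch as a block, the fall from C4 to C5 was called (-0.84, edgeR adjusted p = 0.0335), where 16.5% of features fell without the block. In mocetinostat the C1 to C3 change of MYC was called only without the libraries that stood apart, at 0.65 (edgeR adjusted p = 0.0194), where 6.44% of features rose with them.

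A slope over all 5 concentrations, expressed as the log2 change fitted between both ends, rose for MYC in 3 chemicals. It was 1.17 ± 0.18 in apicidin (edgeR adjusted p = 1.59e-05, 17.2% of features rising), 0.96 ± 0.17 in panobinostat (0.000303, 8.06% rising) and 1.04 ± 0.29 in vorinostat (0.00544, 24.4% rising). The vorinostat slope lost its call without batch 1, at 0.83. None of the other 5 genes had a called slope in any chemical, where 25.4% of all tests were called; at an unadjusted p under 0.05, BRD2, BRD3, CCNT1 and HEXIM1 each had 2 chemicals and CDK9 had 1. CCNT1 in tacedinaline missed only the minimum fold change (-0.57 ± 0.21, edgeR adjusted p = 0.0282), where 21.5% of features fell. It was called there under DESeq2, with another scaling, without the filter on low counts and without batch 3.

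At C1, where the exposure was lowest, mean MYC levels ran from 82.3 ± 19.3 CPM (SD, n = 3) in scriptaid to 121 ± 2.64 CPM in apicidin, leaving aside trichostatin A with its library that stood apart (176 ± 116 CPM). Scriptaid, tacedinaline and vorinostat lay on another plate than the other 5 chemicals. In the order of the C1 means, neighbours overlapped in range except vorinostat and panobinostat, and tacedinaline and apicidin. At C5 the means ran from 61.7 ± 14.7 CPM in mocetinostat to 240 ± 21.9 CPM in apicidin. The step between trichostatin A (138 ± 24.7 CPM) and valproic acid (154 ± 7.56 CPM) overlapped, as did panobinostat and apicidin, while valproic acid and panobinostat (214 ± 22.5 CPM) did not.

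BRD2 and BRD3, the acetyl-lysine readers among the 6 genes, were called at no concentration of any chemical against C1, where 0.0865%, 5.98% and 16.0% of all tests at C2, C3 and C4 were called. Some alternatives did give calls below C5. At C2 of mocetinostat BRD3 was called in the single fit of all libraries (0.65) and without batch 3 (1.07), and BRD2 without batch 3 (-1.40), where the 2 libraries left both stood apart. BRD2 was also called at C4 of valproic acid without batch 2 (-0.99), and at C2, C3 and C4 of trichostatin A without the filter on low counts (-1.10, -1.06 and -1.34), with the C1 library of batch 3 in. Mean BRD2 at C1 lay between 65.7 ± 19.4 CPM (mocetinostat) and 99.7 ± 19.5 CPM (tacedinaline) in the 7 chemicals other than trichostatin A, and at C5 between 81.5 ± 13.9 CPM (valproic acid) and 115 ± 10.9 CPM (vorinostat). Neighbours in both orders overlapped throughout. The log2 changes from C1 to C5 lay between -0.90 and 0.43, with standard errors of 0.18 to 0.40. The lowest was that of trichostatin A, where the C1 libraries gave 101, 120 and 375 CPM of BRD2 and the C5 libraries 98.0, 138 and 80.0 CPM. Without the C1 library of batch 3 this change was -0.07 in place of -0.90. In the same library BRD3 was low, at 93.2 CPM against 139 and 159 CPM in the other 2, and the hepatocyte markers summed to 16900 CPM.

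Mean BRD3 lay between 103 ± 13.4 CPM (tacedinaline) and 158 ± 10.5 CPM (apicidin) at C1. At C5 it lay between 103 ± 21.5 CPM (vorinostat) and 142 ± 19.9 CPM (trichostatin A). Its log2 changes ran from -0.43 to 0.13, with standard errors of 0.16 to 0.27. In apicidin BRD3 stood at 160, 146 and 167 CPM at C1 and at 126, 111 and 128 CPM at C5. The groups did not overlap, yet the change of -0.36 ± 0.17 was not called (edgeR adjusted p = 0.118). Without the C4 library of batch 1 it was -0.37 and passed the adjusted p (edgeR, 0.0361) but not the minimum fold change. In panobinostat BRD3 was at 153, 135 and 174 CPM at C1 and at 131, 95.6 and 119 CPM at C5, also without overlap and without a call (-0.43 ± 0.18, edgeR adjusted p = 0.111). At C4 of vorinostat BRD3 was at 94.8, 106 and 80.6 CPM against 135, 139 and 131 CPM at C1, a change of -0.48 that passed the adjusted p (edgeR, 0.0367) but not the minimum fold change.

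**Figure D3:**
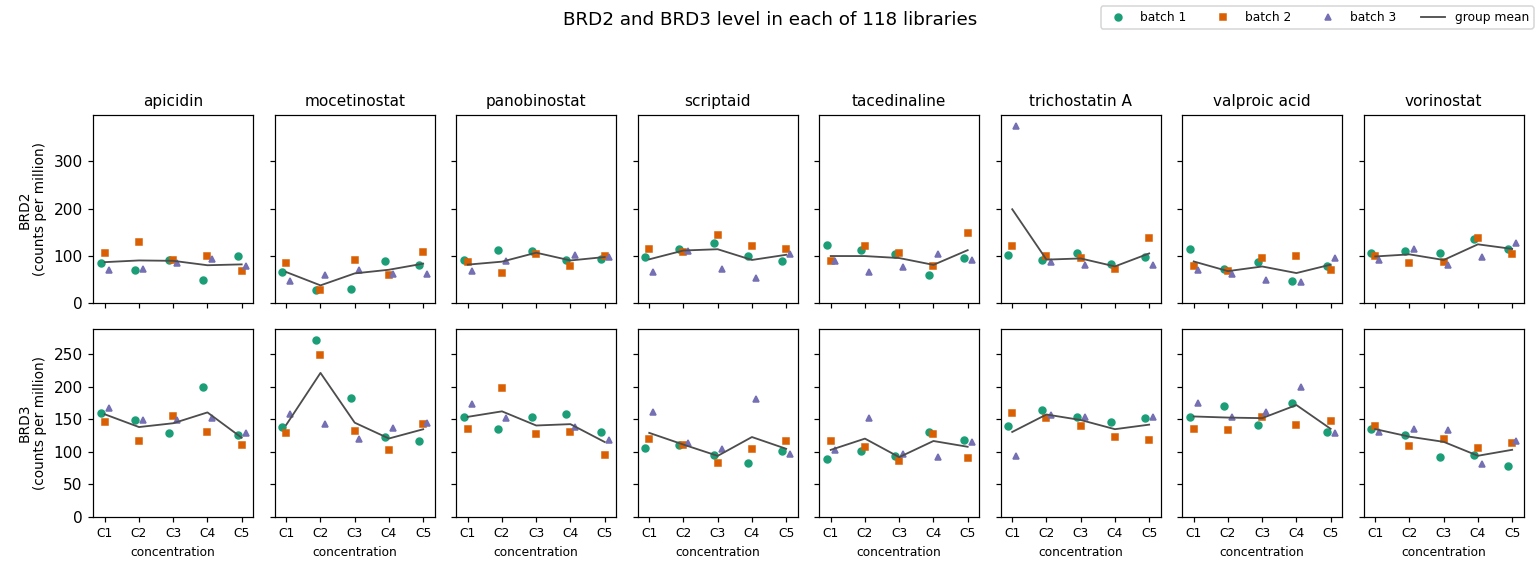
BRD2 (top) and BRD3 (bottom) level (vertical axes, CPM) at C1 to C5 in the 8 chemicals; points are libraries, coloured by HepaRG batch, and lines join group means. Most panels are flat. The high BRD2 point at C1 of trichostatin A (375 CPM) and the high BRD3 points at C2 of mocetinostat (273 and 249 CPM) belong to libraries that stand apart.

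Within groups, BRD2 and BRD3 moved in opposite directions between libraries. In mocetinostat at C2 the libraries of batches 1 and 2 held 26.9 and 26.7 CPM of BRD2 and 273 and 249 CPM of BRD3, whereas the library of batch 3 held 59.1 and 143 CPM. Across the 118 libraries, the deviations of BRD2 and BRD3 from their group means had a Pearson r of -0.67, and of -0.46 over the 110 libraries left after the 8 were removed. The libraries share chemical, batch and plate, so these values are descriptions.

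These deviations followed a wider axis of the profiles. The leading component of the deviations from group means, taken over 7218 other features, held 28.2% of their variance. Its sign is arbitrary and was set, here and below, so that BRD2 correlates positively, so only the signs relative to BRD2 carry meaning. BRD2 correlated with it at r = 0.74 and BRD3 at r = -0.71, values reached in size by 11.3% and 14.2% of those features. CCNT1 stood at -0.59, MYC at 0.49, CDK9 at -0.11 and HEXIM1 at 0.05. Over the 110 libraries the leading component held 14.8% of the variance, and the r was 0.74 for BRD2, -0.50 for BRD3, -0.35 for CCNT1 and 0.44 for MYC. The part of this component in the changes with concentration was not tested.

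**Figure D4:**
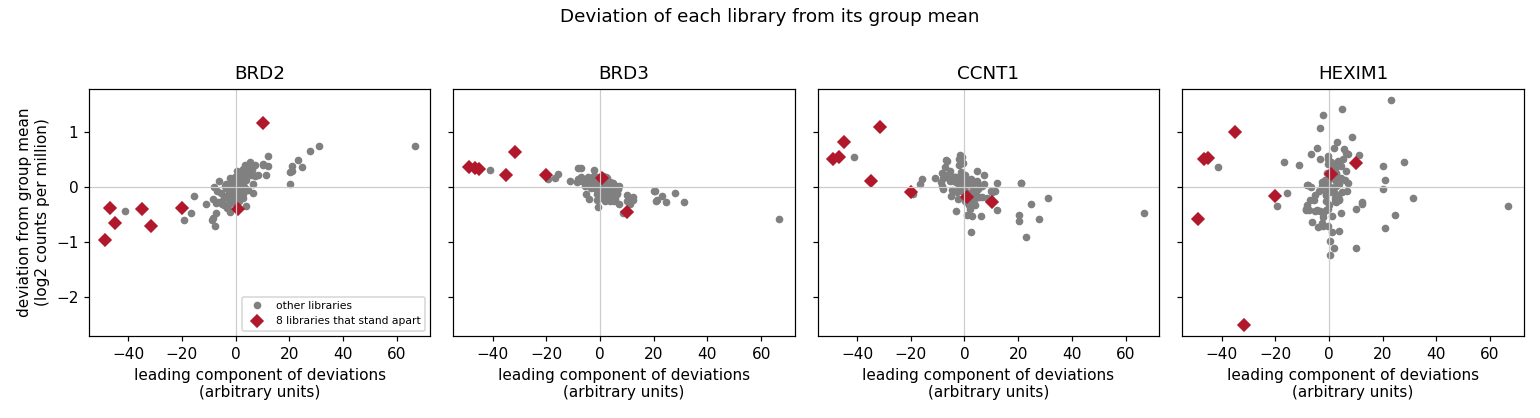
Deviation of BRD2, BRD3, CCNT1 and HEXIM1 from the group mean (vertical axis, log2 CPM) against the leading component of such deviations over other features (horizontal axis, arbitrary units); each point is 1 of 118 libraries and red diamonds are the 8 that stand apart. The sign of the component was set so that BRD2 climbs. BRD2 climbs (r = 0.74) and BRD3 descends (r = -0.71) along the component, CCNT1 descends (r = -0.59), and HEXIM1 shows no slope (r = 0.05).

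HEXIM1, the inhibitor of P-TEFb, was counted sparsely. Its median count was 23 per library and its highest count was 78. In 1 library, C4 of scriptaid in batch 3, it had 0 of 1959644 counts, which allows up to 2.19 CPM (3 counts on the scale of the TMM-scaled total, counting error only). Its C1 to C5 changes spread widely, from -1.26 to 1.29 on the log2 scale with standard errors of 0.43 to 0.69. Changes as large as 1.29 and -1.26 were not called with this spread between libraries.

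The highest HEXIM1 means at C5 were in tacedinaline (14.4 ± 5.25 CPM), mocetinostat (14.0 ± 5.46 CPM) and scriptaid (12.7 ± 1.88 CPM). In scriptaid HEXIM1 was at 4.34, 7.44 and 4.36 CPM at C1 and at 13.9, 13.6 and 10.5 CPM at C5. All C5 libraries were above all C1 libraries, and the log2 change of 1.29 ± 0.69 was not called (edgeR adjusted p = 0.17). Without the C4 library of batch 3 in that fit it was 1.28 with an edgeR adjusted p of 0.0481, and was called, where 12.8% of features rose with that library in. In tacedinaline the C1 libraries held 7.58, 5.92 and 11.7 CPM and the C5 libraries 9.40, 19.9 and 13.9 CPM, so the groups overlapped (0.83 ± 0.47, edgeR adjusted p = 0.152).

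In trichostatin A the HEXIM1 levels were 11.1, 7.70 and 14.9 CPM at C1 and 6.41, 1.58 and 5.98 CPM at C5. These groups did not overlap, and the change of -1.26 ± 0.54 was not called (edgeR adjusted p = 0.485); it was -1.01 without the C1 library of batch 3. In panobinostat the C5 libraries held 9.24, 3.15 and 1.10 CPM against 8.24, 10.9 and 5.98 CPM at C1, with overlap.

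**Figure D5:**
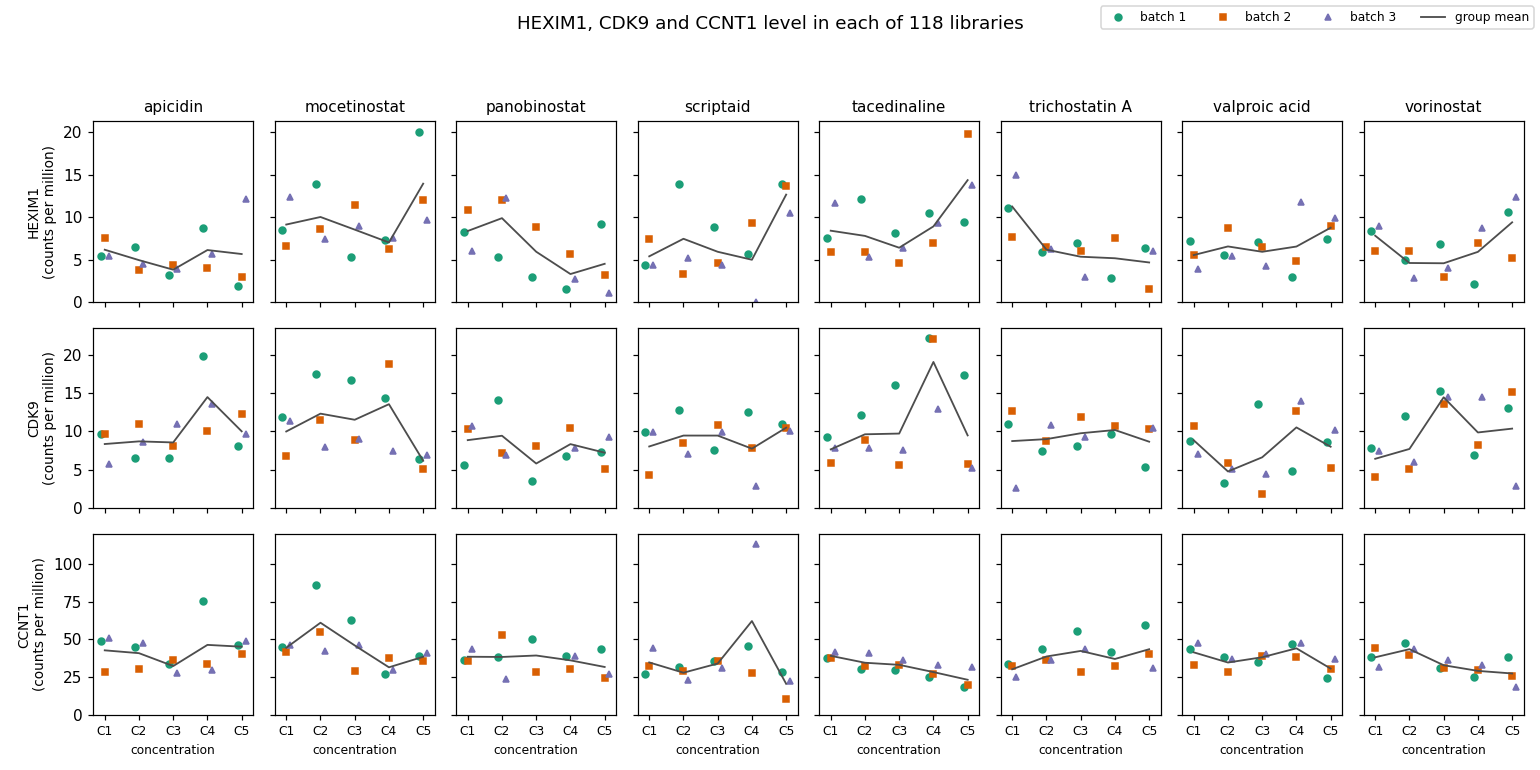
HEXIM1 (top), CDK9 (middle) and CCNT1 (bottom) level (vertical axes, CPM) at C1 to C5 in the 8 chemicals; points are libraries, coloured by HepaRG batch, and lines join group means. HEXIM1 and CDK9 stay near or under 20 CPM with wide spread between libraries, and the highest CCNT1 point (113 CPM) is the C4 library of scriptaid in batch 3, where HEXIM1 is at 0.

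CDK9, the kinase of P-TEFb, had a median count of 31.5 per library. Its mean level lay between 6.44 ± 2.09 CPM (vorinostat) and 9.99 ± 2.78 CPM (mocetinostat) at C1 and between 6.18 ± 0.95 CPM (mocetinostat) and 10.5 ± 0.45 CPM (scriptaid) at C5, and neighbours in both orders overlapped. Its C1 to C5 changes ran from -0.60 to 0.82 on the log2 scale, with standard errors of 0.38 to 0.54. One change was called at another concentration. At C4 of tacedinaline CDK9 stood at 22.1, 22.0 and 12.9 CPM, above the C1 libraries at 9.27, 5.92 and 7.81 CPM, and rose by 1.40 ± 0.47 (edgeR adjusted p = 0.0158), where 16.3% of features rose. The C4 library of batch 1 stood apart, and without it the change was 1.26 (edgeR adjusted p = 0.0561). The call was also lost without batch 1 (1.38), without batch 2 (1.11) and after thinning all libraries to the smallest total (0.85, edgeR adjusted p = 0.347). At C5 of tacedinaline CDK9 stood at 17.3, 5.82 and 5.30 CPM, so that 1 library lay above and 2 below all C1 libraries, and neither C5 against C1 nor C5 against C4 was called.

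CCNT1, the cyclin of P-TEFb, fell at C5 of tacedinaline. Its levels were 37.9, 37.6 and 41.7 CPM at C1 and 18.3, 19.9 and 31.4 CPM at C5. The groups did not overlap, and the log2 change of CCNT1 was -0.68 ± 0.27 (edgeR adjusted p = 0.037), where 20.1% of features fell. Between these ends the mean declined at each step in the plot of levels. The call was lost without batch 1 (-0.57) and without batch 2 (-0.61).

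In scriptaid CCNT1 was at 27.3, 32.7 and 44.2 CPM at C1 and at 28.6, 10.5 and 22.4 CPM at C5, with overlap and no call (-0.70 ± 0.44, edgeR adjusted p = 0.248). From C4 to C5 of scriptaid it fell by 1.57 (SE 0.45, edgeR adjusted p = 0.0154), but the C4 libraries were 45.8, 27.6 and 113 CPM. The last of these is a library that stood apart, and without it the change was -0.79 (edgeR adjusted p = 0.0944). That call was also lost without batch 2 (-1.64) and without batch 3 (-0.92). In the other chemicals the CCNT1 changes from C1 to C5 lay between -0.43 (valproic acid) and 0.54 (trichostatin A). Mean CCNT1 at C1 ran from 30.1 ± 4.71 CPM (trichostatin A) to 44.4 ± 2.27 CPM (mocetinostat), with overlap between neighbours.

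Over the 6 genes, the median size of the C1 to C5 log2 change was smaller than over all features in 7 chemicals. It was 0.19 against 0.59 in apicidin, 0.38 against 0.81 in vorinostat, 0.35 against 0.77 in scriptaid and 0.37 against 0.68 in tacedinaline. In trichostatin A, with the C1 library of batch 3 described above, it was 0.44 against 0.28.

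The other BET, P-TEFb and 7SK genes, among them CCNT2, HEXIM2, LARP7 and MEPCE, gave 0 rises and 6 falls (15.0%) in 40 tests at C5, where 13.4% of all tests fell. Their median log2 change was below that of all features in all 8 chemicals, from -1.30 in panobinostat to -0.18 in apicidin. MEPCE, the capping enzyme of 7SK, fell in panobinostat (-1.90 ± 0.58), tacedinaline (-1.38 ± 0.54) and vorinostat (-2.29 ± 0.54), from 10.8, 13.7 and 17.5 CPM at C1 to 2.98, 4.90 and 3.40 CPM at C5. LARP7 fell in panobinostat (-0.70 ± 0.18), scriptaid (-0.84 ± 0.28) and valproic acid (-0.65 ± 0.19).

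The factors that act with P-TEFb in elongation gave 40 rises (16.7%) and 4 falls (1.7%) in 239 tests, against 11.6% and 13.4% of all tests. EAF2, a partner of the ELL elongation factors, rose in 5 chemicals with the probe EAF2_22367, whose log2 changes ran from -0.14 in trichostatin A to 2.38 in scriptaid, and in 1 with the probe EAF2_2011. MLLT3, a subunit of the super elongation complex, also rose in 5, up to 1.88 in vorinostat. JMJD6, an enzyme with a JmjC domain, rose in 5 with changes up to 0.80. CCNK, the cyclin of CDK12 and CDK13, rose in 4. None of these 4 was called in trichostatin A, where only 2 of 12993 features (0.0154%) were called at C5.

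The partners of MYC in its dimer network gave 16 rises (22.9%) and 5 falls (7.1%) in 70 tests, against 11.6% and 13.4% of all tests. MAX, with which MYC binds DNA, rose with the probe MAX_92676 in 6 chemicals and with MAX_92675 in 5. The first probe changed by 1.51 in mocetinostat, where MYC fell, and by 1.07 in apicidin, where MYC rose. MXI1, which competes with MYC for MAX, rose in 5 chemicals, by up to 1.70 in vorinostat. MLXIPL, a glucose-responsive factor of the same network, fell in 5, by up to 1.73 in mocetinostat.

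Genes of ribosome production and biosynthesis that are known MYC targets gave 21 rises and 15 falls in 287 tests, 7.3% and 5.2%, below the shares over all features. Their median log2 change lay between -0.16 and 0.25 in the 8 chemicals. ODC1, the first enzyme of polyamine synthesis, rose with both of its probes in 5 chemicals. Among them were apicidin, where MYC rose, and mocetinostat (4.04 with the probe ODC1_4799), where MYC fell. ODC1 was not called to rise in panobinostat (0.94) or valproic acid, where MYC rose. FBL, the methyltransferase fibrillarin of the nucleolus, rose in 4. LDHA, a glycolytic enzyme, fell in 3 chemicals and rose in scriptaid by 1.45.

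Bromodomain proteins outside the BET family gave 11 rises (3.5%) and 59 falls (19.0%) in 310 tests, against 11.6% and 13.4% of all tests. ZMYND11, a reader of methylated histone variant H3.3, fell in 7 chemicals, with -2.68 in scriptaid as its lowest log2 change. BRD1, a scaffold of acetyltransferase complexes, fell in the same number, down to -1.72 in vorinostat. KAT2B, an acetyltransferase with its own bromodomain, and BAZ2B, a chromatin remodelling subunit, each fell in 5. All 4 were uncalled in trichostatin A, where 0.0154% of all features were called at C5, with the C1 library of batch 3 that stood apart in its reference.

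Genes known from BET inhibitor experiments, a list that holds HEXIM1 and MYC themselves, gave 11 rises (31.4%) and 1 fall (2.9%) in 35 tests, against 11.6% and 13.4% of all tests. MYC made up 3 of the rises and the fall. SERPINI1, which encodes neuroserpin, passed the filter on low counts in 7 chemicals and rose in 5 of them, from 0.66 ± 0.90 CPM at C1 to 12.6 ± 4.73 CPM at C5 in tacedinaline. HIST2H2BE, a histone H2B gene, passed it in 4 and rose in 2, mocetinostat and tacedinaline. Both were near 0 at C1 and could pass the filter through the exposed groups, so their part of the count says nothing about direction. ZCCHC24 rose in 1 of 8.

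Markers of cell state moved in the same libraries. Over all features, 11.6% of tests gave a rise and 13.4% a fall. The hepatocyte markers gave 0 rises and 106 falls (82.8%) in 128 tests. Their sum lay between 3700 and 60700 CPM in the C5 libraries. CYP3A4, a drug-metabolising enzyme of hepatocytes, fell with both of the probes named by the rule in 7 chemicals. The proliferation markers gave 0 rises and 36 falls (47.4%) in 76 tests, with MKI67 falling in 7 and TOP2A in 6. Biliary and progenitor markers gave 11 rises (28.2%) and 1 fall (2.6%) in 39 tests. SOX9 and SPP1 rose in 5 each, and KRT19 rose in 1 with 1 of its 2 probes. Stromal markers gave 7 rises (10.9%) and 27 falls (42.2%) in 64 tests. COL3A1 and ACTA2 fell in 7, COL1A1 rose in 6, and the 3 probes of DCN fell in 6, 3 and 1. The sum of the 12 stromal features lay between 155 and 325 CPM at C1 and between 72.0 and 210 CPM at C5. The part of these markers in the changes of MYC and CCNT1 was not tested.

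The features whose levels ran most like those of the 6 genes over the 118 libraries, after the mean of each chemical was subtracted, were found among 11288. For MYC they were SLC7A7 (Pearson r = 0.81), PDLIM1 (0.75) and FLRT3 (0.74). BRD2 lay nearest to ZFAND5 and VPS50 (0.77) and SNRPC (0.76), BRD3 to TVP23C, SUMF2 and CNTROB (0.74), and CCNT1 to TNRC6A (0.79), CLASP1 and SON (0.76). HEXIM1 (DDX41, 0.54) and CDK9 (HADHA, 0.53) had no neighbour above 0.54. The libraries share chemical, batch and concentration, so these values are descriptions.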

How the data were processed

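The 118 TempO-Seq libraries of HepaRG cells were grouped by chemical and concentration from the sample labels, and replicate numbers are HepaRG batches. The paper supplied with the series covers another HepaRG experiment and was used for style only. The authors deposited raw counts per detector probe, whole numbers with no normalisation. Of 22069 rows, 1 lacked values in 88 libraries and was left out. The submitters' processing notes name bcl2fastq 2.20.422, fastp 0.23.2, STAR 2.7.10b and DESeq2 1.38.0; the genome build is not given in the sources used here, so no coordinates are printed. Probe sequences were not used here. Probes differ in efficiency, so levels of different genes were not compared.

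From these counts, edgeR 4.0.16 (R 4.3.3, limma 3.58.1) was run for each chemical separately, with TMM scaling, filterByExpr by group and quasi-likelihood F tests of C2 to C5 against C1 and of the slope on log2 concentration. The standard error of a log2 change is its size over the root of its F value. CPM values use TMM-scaled totals over all 118 libraries, and log2 CPM a prior count of 2. Calls needed an adjusted p (Benjamini-Hochberg) under 0.05 and at least a 1.5-fold change. Simulated data used the means of the apicidin (12375 features) or the vorinostat libraries (11278 features). Of 2-fold and 4-fold changes, 35.8% and 66.3% were recovered for apicidin and 44% and 78% for vorinostat. Only 106 features were changed 2-fold and 89 4-fold for apicidin, and 100 and 91 for vorinostat. The real C5 tests called 28.8% and 47.5% of features, so the recovered shares do not describe the real tests. Alternatives were the batch as a block, leaving out each batch, DESeq2 1.42.0, RLE scaling, no filter on low counts, 1 fit of all libraries, thinning to 1061359 counts, and no minimum fold change. Chosen after seeing the data were the fit without 8 libraries that stand apart (low mean correlation with their 5 nearest libraries of other groups, C5 excepted) and the tests of C5 against C3 and C4. The batch labels pair the samples: over 232 pairs of libraries of 1 batch the deviations from group means had a median r of 0.02, and over 464 pairs of different batches -0.01. P-values measure the spread between the libraries of a group, each from another batch of 1 cell line. The main fits had no batch term, so spread between batches and spread between libraries were not separated.

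The 6 genes, the gene lists and the tests were chosen with earlier results of these data known. Named were, beside the 6 genes and their 3 nearest features, at most 4 features per list, those called in the same direction in the most chemicals, with ties ranked by median change; the whole-list counts are given with them. Some features that the rule names are not reported here. No sequences or coordinates are printed.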

Additional observations from a re-analysis of the deposited data

Results flagged for a closer look

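The C5 against C1 change of MYC differed among the 8 chemicals by a test of that difference (edgeR, F = 7.79, adjusted p = 2.59e-06 over 15632 features). MYC rose in 3 chemicals and fell in 1, as the levels by concentration show. The other 5 genes did not pass this test. No group had 4 or more libraries, so single libraries were not tested as outliers within groups.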

How the results depend on the processing

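The 18 called changes of the 6 genes were recomputed under their alternatives in 168 cases. The direction was kept in all 168, and the call was lost in 32. Some of the 168 could not differ from the main result. Dropping the minimum fold change alters neither direction nor an existing call. In panobinostat and vorinostat no library stood apart, so the fit without such libraries repeats the main fit. For the 318 changes that were not called, 2949 recomputed values gave a call in 29 and the other sign in 254. MYC was called at C5 in 4 chemicals, and in 2 after thinning to the smallest total; leaving out a batch gave 2 to 3. CCNT1 was called at C5 in 1 chemical and in 0 without the filter on low counts, in the single fit of all libraries and after thinning, with 0 to 1 when a batch was left out. Its slope was called in 0 chemicals, in 1 with DESeq2, RLE scaling, no filter or no minimum fold change, and in 0 to 1 without a batch. BRD2 was called at C5 in 0 chemicals and in 1 without the filter (trichostatin A, -0.91), and HEXIM1 in 0 and in 1 without the libraries that stand apart (scriptaid, 1.28). The cause of these differences was not tested. MYC in mocetinostat and in valproic acid each lost its C5 call in 5 of 11 alternatives, as did CCNT1 in tacedinaline, and CDK9 at C4 of tacedinaline in 4 (0.85 after thinning).

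With the replicate number as a block, which pairs the samples by HepaRG batch, the fall of MYC from C4 to C5 of scriptaid was called (-0.84, edgeR adjusted p = 0.0335), and no other call of the 6 genes changed. The planned sum of several probes per gene was not run, because each of the 6 genes has 1 probe. Counts were low for HEXIM1 (median 23) and CDK9 (median 31.5), and intervals and floors cover counting error only. Thinning removed 5 of the 13 called changes against C1 or by slope.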
